A study of Mus musculus with 9 samples.

Results

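The neurons described here are labelled as a subtype of Trpm8-expressing cold neuron of the trigeminal ganglion, named for Ociad2 and Cpne9. They were chosen by their own counts. A barcode was kept as a neuron if it had 500 to 7500 detected genes, a UMI of at least 3 of Tubb3, Scn9a, Snap25, Nefl, Nefm and Uchl1, and no UMI of Epcam. A UMI, or unique molecular identifier, stands for 1 captured transcript. Of the 3855 neurons, 436 had a UMI of Trpm8 or Foxp2. Of these, 222 had more detected genes of a list of 7 (Cpne9, Ociad2, Ccnd2, Kcnh8, Hpca, Fam184b and Pcp4l1) than of a list of 8 (Ndrg1, Cald1, Wls, Ntsr2, Tmtc4, Ndp, Klhl13 and Angpt4). These 222 of 6997 barcodes are called the Ociad2/Cpne9 neurons. They were 50.9% of the neurons with Trpm8 or Foxp2 (46.1 to 55.7%, exact binomial 95% interval) and 5.76% of all neurons (5.04 to 6.54%).

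All cells were from wild type mice of the FVB/N strain, labelled as 3 to 6 weeks old, with no treatment named. The trigeminal ganglia were dissociated. Ganglia of several mice of both sexes were pooled for each of 9 Drop-seq runs, a droplet method that counts the 3′ ends of polyadenylated RNA. Neurons had been enriched on a Percoll gradient and by removal of non-neuronal cells. The barcodes of the deposited table name no run, so all cells stand as 1 pooled sample: there is no replicate, and no difference was tested.

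Trpm8 is the ion channel that opens on cooling and on menthol, and neurons with it carry innocuous cold, cold pain and the wetness reflex of the eye surface. Trigeminal cold fibres are known as thin C fibres and lightly myelinated A-delta fibres. Neurofilaments, built from the light, medium and heavy chains Nefl, Nefm and Nefh, fill thicker, myelinated axons, while peptides such as substance P (from Tac1) and CGRP (from Calca) are typical of many unmyelinated nociceptors.

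The Ociad2/Cpne9 neurons were set against 3 groups from the same table and the same filters. The first was the 159 neurons with more genes of the second list, called the Ndrg1/Angpt4 neurons. The second was the 3419 neurons with no UMI of Trpm8 and Foxp2, called the other neurons. The third was 737 of these other neurons with Nefh and at least 2 of S100b, Scn1a, Kcna1, Syt2 and Vsnl1, called the large-fibre neurons. That name stands for the choice alone, since C-fibre genes were found there too: the nociceptor channel Scn10a was at 263 CPM, with a UMI in 41.4% of these neurons, and Fam19a4, a marker of C-fibre low-threshold mechanoreceptors, at 118 CPM, with a UMI in 20.5%. After every barcode was thinned to 1000 UMIs these shares were 15.6% and 6.24%, against 1.81% and 0.227% in red blood cell-like cells, which should lack both (median depths before thinning 4721 and 1360 UMIs). The 55 neurons with equal numbers of both lists were left out of these comparisons. A level is given as CPM, the UMIs of a gene per 1000000 UMIs summed over a group, with an exact Poisson 95% interval where one is shown. A difference is given as a log2 ratio of CPM, with the exact conditional binomial 95% interval in parentheses. The intervals cover counting error only, since the UMIs of 1 neuron are not independent draws. Genes with at least 100 CPM in either group and at least 100 UMIs in both together were compared, and a ratio past 1.5-fold was counted as higher or lower. A gene that reached 100 CPM in 1 of the groups only was likely to differ, so the counts over a list describe the genes that entered and support nothing about the list. Because the rule read the same counts, every value here is a description.

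The Ociad2/Cpne9 neurons held 1470229 UMIs in all, with a median of 4338 per neuron (1005 to 52104) and a median of 2169.5 genes. The median was 4899 UMIs in the Ndrg1/Angpt4 neurons, 2883 in the other neurons and 4721 in the large-fibre neurons. The table held 30491529 UMIs in 21536 genes, with a median of 2031 per barcode. Among its barcodes, 6 occurred as 2 cells each, and none of those was an Ociad2/Cpne9 neuron. A further barcode within 1 base was found for 14 Ociad2/Cpne9 neurons, and for 8 of these the neighbour was itself in the set. Whether such pairs, or droplets with 2 cells, added to any value was not tested.

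The genes that chose the set come first, as a description. Trpm8, on chromosome 1 at 88277661 to 88389293 (mm10, plus strand), stood at 548 (510.4 to 587) CPM in the Ociad2/Cpne9 neurons, 318 CPM in the Ndrg1/Angpt4 neurons and 340.3 CPM in the neurons with equal lists. The lowest, median and highest Trpm8 counts in an Ociad2/Cpne9 neuron were 0, 2 and 25 UMIs. A Trpm8 UMI was seen in 206 of the 222, with 62 of them holding exactly 1, and 16 entered through Foxp2 alone. Foxp2, a forkhead transcription factor, was at 114 CPM beside 116 CPM in the Ndrg1/Angpt4 neurons. Both genes were at 0 in the other neurons, since a UMI would have moved a neuron out of that group.

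Ociad2 encodes a small protein of mitochondrial and endosomal membranes, and lies on chromosome 5 at 73322199 to 73341028 of the mm10 build in the GENCODE annotation, on the minus strand. Its level was 349 (319 to 380.5) CPM in the Ociad2/Cpne9 neurons against 22.8 CPM in the Ndrg1/Angpt4 neurons and 11.6 CPM in the other neurons. The lowest, median and highest counts were 0, 1 and 25 UMIs, and 59.0% (52.2 to 65.5%) of the neurons had a UMI. After every neuron was thinned to 1000 UMIs, the share with Ociad2 was 23.9%, against 0.990% of glia-like cells and 0.907% of red blood cell-like cells, a measure of free RNA in the droplets. Glia-like cells had a median of 1422 UMIs before thinning and red blood cell-like cells 1360.

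Cpne9, a copine with calcium-dependent lipid-binding domains, lies on chromosome 6 at 113282307 to 113305627, plus strand. It stood at 134 CPM in the Ociad2/Cpne9 neurons, 10.5 CPM in the Ndrg1/Angpt4 neurons and 8.64 CPM in the other neurons, with a UMI in 46.4% of the set. Ccnd2, a D-type cyclin on chromosome 6 at 127125162 to 127152193, stood at 182 CPM against 40.3 CPM and 17.7 CPM. Its level in the neurons with equal lists, 187 CPM, lay at that of the Ociad2/Cpne9 neurons. Pcp4l1, a calmodulin-binding protein, was at 918 CPM against 95.4 CPM in the Ndrg1/Angpt4 neurons, and Fam184b at 355 against 95.4 CPM. Hpca, the calcium sensor hippocalcin, was present on both sides at 1059.7 and 671 CPM, with 80.8 CPM in the other neurons. Kcnh8, a slowly gating potassium channel, was at 133 and 71.8 CPM.

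The 250 bases before the RefSeq start of Cpne9 are shown because this gene names the set. They span chr6:113282057-113282306 of GRCm38.p6, plus strand, and no letter is in capitals because neither of the motifs searched for further on occurs in them.
Cpne9: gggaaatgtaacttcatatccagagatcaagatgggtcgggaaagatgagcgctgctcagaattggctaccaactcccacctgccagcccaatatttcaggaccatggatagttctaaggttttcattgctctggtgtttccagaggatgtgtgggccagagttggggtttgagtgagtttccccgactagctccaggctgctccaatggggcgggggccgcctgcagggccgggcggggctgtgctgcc

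A UMI of at least 1 gene of the second list was found in 172 of the 222 neurons. After thinning to 1000 UMIs the share of the set with Cald1 was 4.05%, against 4.08% of red blood cell-like cells. For Angpt4 it was 0.450%, against 0.495% of glia-like cells. Neither was above that background. The share with Ndrg1 was 1.80%, against 45.0% of glia-like cells. A share that high may be the message of those cells themselves, so it is no measure of free RNA. Whether Ndrg1 in the set was background was not tested. Tmtc4 was seen in 17.1% against 0.680% of red blood cell-like cells. Ndrg1, a stress-responsive cytoplasmic protein, was at 13.6 CPM against 161 CPM in the Ndrg1/Angpt4 neurons, Angpt4, an angiopoietin ligand, at 10.2 against 77.9 CPM, and Cald1, the actin-binding caldesmon, at 37.4 against 239.9 CPM. Ntsr2, a neurotensin receptor, was at 75.5 against 306 CPM. Wls, which carries Wnt proteins to the cell surface, was not lower, at 154 against 136 CPM, with a UMI in 40.1% against 52.2% of neurons. Klhl13 was at 68.7 against 101 CPM and Tmtc4 at 262 against 406 CPM. Ndp, the Wnt-receptor ligand norrin, was at 37.4 against 81.4 CPM. Of the 6 neuronal genes of the filter, the neurofilament chains stood out, with Nefl at 10815 CPM against 3881 CPM and Nefm at 9752 against 3084 CPM. In the other neurons Nefl was at 4998 and Nefm at 3399.8 CPM.

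Of the 5 markers of the label, Trpm8, Ociad2, Cpne9 and Ccnd2 are genes of the rule, so their presence checks nothing. Nefh, the heavy neurofilament chain, was not read by the rule, but its level in these cells was known when the members were chosen, so it is no independent check. Nefh stood at 2414 (2335 to 2495) CPM in the Ociad2/Cpne9 neurons, 897 (843 to 953) in the Ndrg1/Angpt4 neurons, 966 in the other neurons and 2061 CPM in the large-fibre neurons, which needed a UMI of Nefh. The lowest, median and highest counts per neuron were 0, 8 and 253 UMIs, against 0, 3 and 77 in the Ndrg1/Angpt4 neurons, so the groups overlapped. The log2 ratio was 1.43 (1.33 to 1.53) against the Ndrg1/Angpt4 neurons.

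Genes of the Trpm8 class at large were also there. These are 18 genes from the study's heatmap or marker table for the class, drawn from these same cells, so their direction is not independent evidence. Of 17 compared with the other neurons, 13 were higher and 3 lower, with a median log2 ratio of 2.09. Over all 2435 genes of that comparison 14.9% were higher, 16.1% were lower and the median was -0.02. Plcd4, a phospholipase C, was at 1953 CPM against 182 CPM, with 0, 7.5 and 117 UMIs as lowest, median and highest counts. Cpxm2, a member of the carboxypeptidase family, was at 144 against 5.66 CPM, a log2 ratio of 4.66 (4.31 to 5.02). Gpr26, an orphan G protein-coupled receptor, was at 241 against 17.7 CPM, and the classical cadherin Cdh8 at 181 against 29.1 CPM. Lxn, the carboxypeptidase inhibitor latexin, had 0, 16 and 148 UMIs as lowest, median and highest counts.

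Against the Ndrg1/Angpt4 neurons, of which 135 of 159 had a UMI of Trpm8, 7 of 17 of these genes were higher and 3 lower. Cdh8 stood at 181 and 179 CPM in the 2 groups and Lxn at 3631 and 3207 CPM. In the comparison with the Ndrg1/Angpt4 neurons, 10.4% of all 2325 genes were higher and 11.3% were lower, with a median log2 ratio of -0.03. The class list split at its ends. Ctxn3, a small membrane protein of the cortexin family, was at 198 (176 to 222) CPM against 11.4 (6.06 to 19.5), a log2 ratio of 4.12 (3.32 to 5.05), while 149.6 CPM was found in the other neurons. Rnase4, a secreted ribonuclease, was at 21.8 against 148 CPM, and Fxyd6, a regulator of the sodium pump, at 27.9 against 161 CPM. The list thus held genes that were higher on either side of the rule.

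The 17 markers of other neuron classes together made up 0.197% of UMIs in the Ociad2/Cpne9 neurons, 0.694% in the Ndrg1/Angpt4 neurons and 0.855% in the other neurons. Calca and Tac1 made up most of these sums. Without the neurons of 10 or more Calca UMIs the log2 ratio of the sum against the Ndrg1/Angpt4 neurons went from -1.82 (-1.88 to -1.76) to -1.55. Against the other neurons it went from -2.12 (-2.17 to -2.07) to -0.43. That setting kept 215 of the 222 neurons, 124 of the 159 Ndrg1/Angpt4 neurons and 2039 of the 3419 other neurons. It chose on Calca, a gene of the sum, so part of the change is built in. Of these markers, 7 reached the limit of 100 CPM in the comparison with the other neurons, several of them only through the other neurons, so no count by direction is read from them. For Tac1 and Trpv1 on this list, lower in the summed counts, the direction turned, to log2 ratios of 1.08 and 1.30, without the neurons of 10 or more Calca UMIs, and Tac1 was seen in 175 of the 222. No UMI of Mrgprd, the receptor that marks polymodal nociceptors, was found in the 222 neurons, so its level was at least 64.8-fold lower than the 132 CPM of the other neurons, taking 3 UMIs over the group as the limit of a count of 0. A UMI of Mrgprd, Nppb, Sst, Mrgpra3 or Cd34 was found in 7 neurons and 2 or more UMIs of 1 of them in 3. These 5 are a choice of class markers, and no such count is given for another group. The count leaves out Tac1 and Trpv1, which had a UMI in 175 and 45 of the 222. It therefore does not stand for the markers of other classes as a whole. Calca reached 10 UMIs in 7 of the neurons (up to 106) against 35 of the 159 Ndrg1/Angpt4 neurons.

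The rule draws its line between a lead of 0 and a lead of 1 list gene. The 65 neurons just inside had a Nefh level of 1836 CPM and the 55 just outside 1819.6 CPM. Lxn was at 3648 and 2220 CPM, Plcd4 at 1902 and 1556 CPM, and Dner at 858 and 502 CPM. Tac1 was higher inside, at 1862 against 1077 CPM. For these peptides the step lay 1 place further out: the 58 neurons with a lead of -1 had 4198 CPM of Tac1 and 598 CPM of Gal, the precursor of the peptide galanin, against 209.6 CPM of Gal at a lead of 0 and 254 CPM at a lead of 1. Across the whole range of leads, from second-list genes in excess by 4 or more (39 neurons) to first-list genes in excess by 4 or more (47 neurons), Nefh went from 513 to 3430 CPM, Dner from 156 to 1300.1 CPM and Efr3a from 23.8 to 810.1 CPM. Tac1 went from 5017 to 435 CPM and Gal from 1128 to 94.8 CPM. The steps between were not always in 1 direction: Nefh was 2558 CPM at a lead of 2 and 2332 CPM at a lead of 3. The median depth was 6457 UMIs at -4 or less, 3815 UMIs at a lead of 1 and 3497 UMIs at 4 or more.

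**Figure D1:**
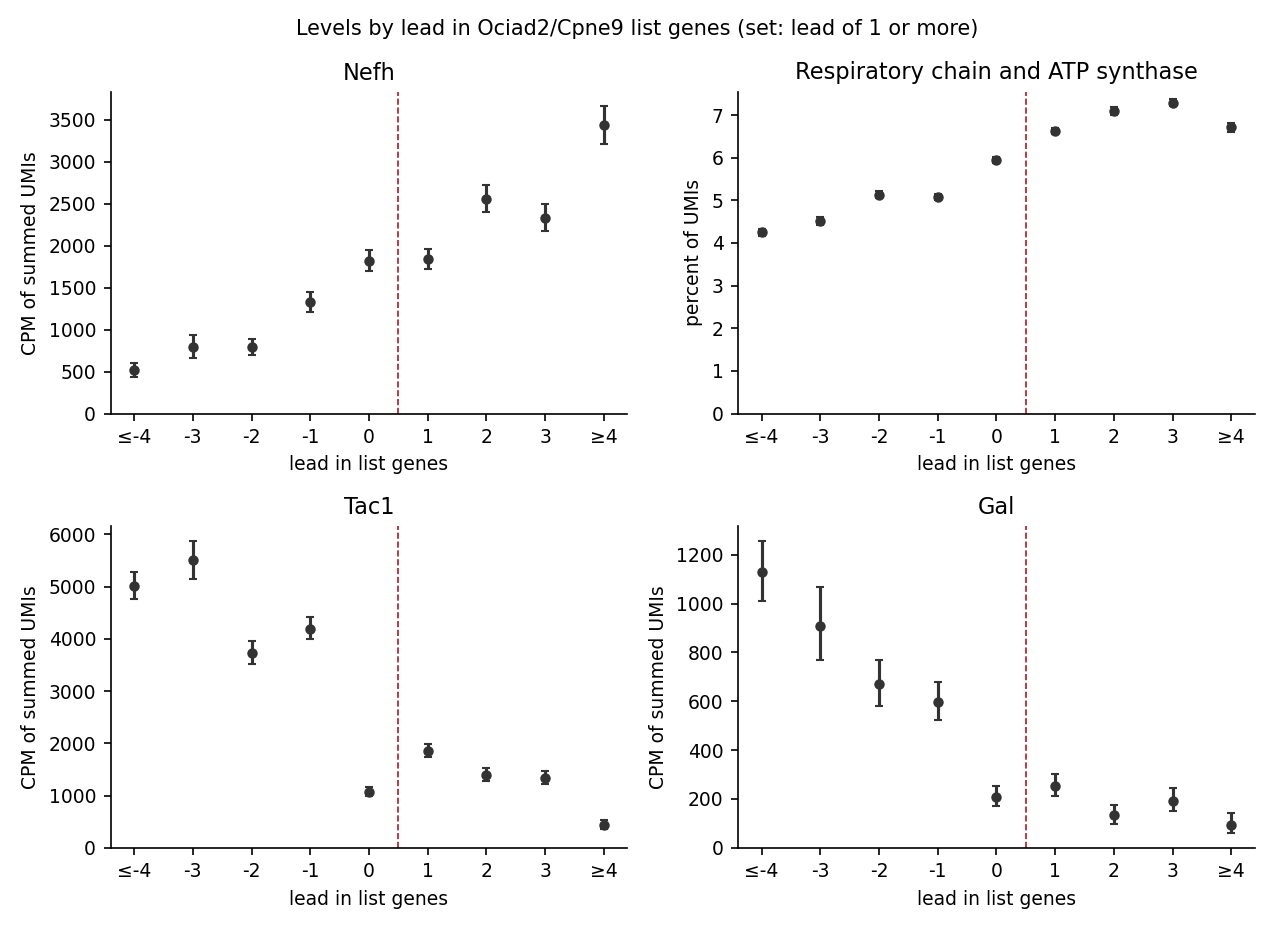
Level of 4 measures by the lead in list genes (x axis: detected genes of the Ociad2/Cpne9 list minus those of the Ndrg1/Angpt4 list), in CPM for Nefh, Tac1 and Gal and as percent of UMIs for the 77 genes of the respiratory chain and ATP synthase. Points are pooled values of the neurons at that lead and bars are 95% counting intervals. The dashed line marks the edge of the set, and Nefh went from 513 to 3430 CPM and Gal from 1128 to 94.8 CPM.

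Of 15 genes of large, fast-conducting fibres, 11 were compared with the Ndrg1/Angpt4 neurons, 10 were higher, 0 were lower and the median log2 ratio was 1.31, where over all genes 10.4% were higher, 11.3% lower and the median was -0.03. Thy1, Scn1a and Pvalb were among those that entered through the Ociad2/Cpne9 neurons alone. Cplx1, a complexin that clamps synaptic vesicles, was at 1347 CPM against 464 CPM, with 0, 5 and 82 UMIs as lowest, median and highest counts. Ldhb, the lactate dehydrogenase subunit typical of oxidative tissue, was at 1168 against 375 CPM (log2 ratio 1.64, 1.49 to 1.80). Atp1b1, the beta subunit of the sodium pump, was at 5858 against 2734 CPM, and the surface glycoprotein Thy1 at 292 against 88.4 CPM. Scn1a, the sodium channel Nav1.1, was at 185 against 74.4 CPM.

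S100b, the calcium-binding protein that with Ntrk2 marks such fibres, was at 84.3 CPM in the Ociad2/Cpne9 neurons and 424 in the other neurons. Piezo2, the touch receptor channel, was at 44.9 CPM against 838 CPM in the large-fibre neurons (log2 ratio -4.22, -4.60 to -3.87) and 109 CPM in the Ndrg1/Angpt4 neurons, where its log2 ratio turned to 0.22 with the groups chosen at 1000 UMIs. Ngfr, the low-affinity neurotrophin receptor, was at 14.3 against 275 CPM. In this comparison 10.6% of 2364 genes were higher and 12.8% lower. Of the 15 large-fibre genes, the 8 that had not chosen that group and could be compared gave 5 higher and 0 lower. Ldhb at 560.1 CPM, Atp1b1 at 2798 CPM and Chchd10, a protein of mitochondrial cristae, at 527 CPM lay below the Ociad2/Cpne9 values of 1168, 5858 and 1493 CPM. Chchd10 is also on the list of the Trpm8 class drawn from these same cells, so its direction is not independent evidence.

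Messages of oxidative metabolism stood higher against all 3 groups. The 77 nuclear genes of the respiratory chain and ATP synthase together made up 6.92% of UMIs in the Ociad2/Cpne9 neurons, 4.80% in the Ndrg1/Angpt4 neurons, 3.78% in the other neurons and 4.56% in the large-fibre neurons. The log2 ratio of these sums was 0.53 (0.51 to 0.54), 0.87 (0.86 to 0.88) and 0.60 (0.59 to 0.61) in that order. Of 74 genes compared, 29, 63 and 39 were higher and none was lower in any of these comparisons, at medians of 0.52, 0.88 and 0.61. Over all genes 10.4%, 14.9% and 10.6% were higher and 11.3%, 16.1% and 12.8% lower. Single genes lay between log2 ratios of -0.14 and 0.92 against the Ndrg1/Angpt4 neurons.

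The neurons spread widely in this share. The lowest, median and highest values of single neurons were 0.709%, 6.96% and 10.4% in the Ociad2/Cpne9 neurons, with quartiles of 5.58% and 8.01%. Of the 222, 192 (86.5%, 81.3 to 90.7%) lay above the median of the Ndrg1/Angpt4 neurons, 4.38%, and 208 (93.7%) above that of the other neurons, 3.40%. The ranges overlapped: the highest neuron was at 8.99% among the Ndrg1/Angpt4 neurons, and at 12.4% among the other neurons and 11.6% among the large-fibre neurons, both above the highest of the set. Neurons with equal lists had a median of 5.17%.

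**Figure D2:**
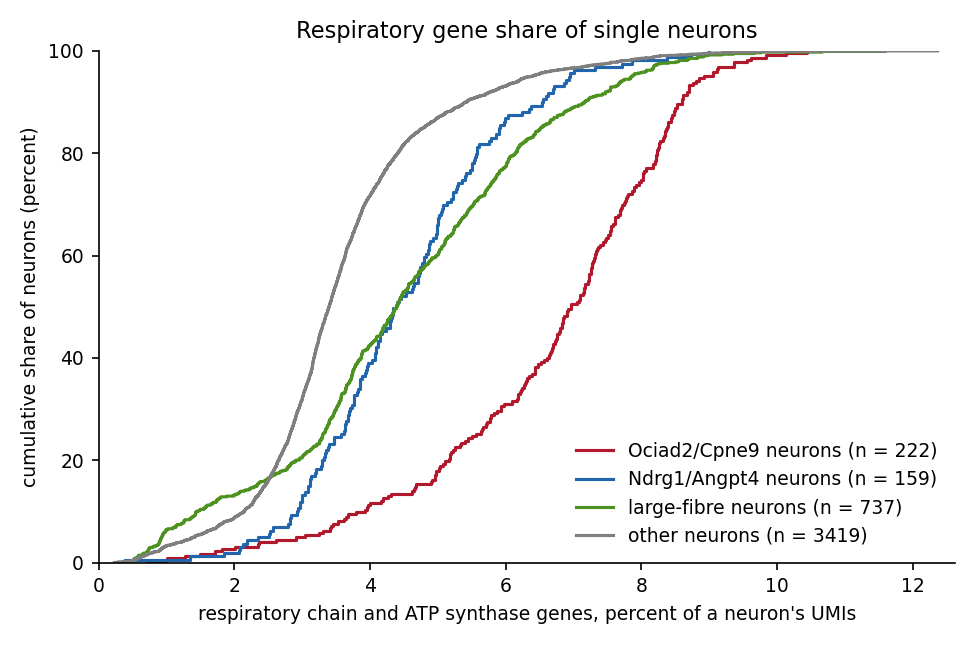
Cumulative share of neurons (y axis, percent) against the percent of a neuron's UMIs that came from 77 genes of the respiratory chain and ATP synthase (x axis), for the 222 Ociad2/Cpne9, 159 Ndrg1/Angpt4, 737 large-fibre and 3419 other neurons. The curve of the Ociad2/Cpne9 neurons lies to the right, with a median of 6.96% against 4.38%, 4.40% and 3.40%, and the curves overlap.

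Higher genes were found in each of the enzyme complexes, where 10.4% of all genes were higher than in the Ndrg1/Angpt4 neurons. Complex I, the NADH dehydrogenase, had 11 of 36 genes higher than in the Ndrg1/Angpt4 neurons, complex II, succinate dehydrogenase, 2 of 4, complex III, cytochrome c reductase, 5 of 9, complex IV, cytochrome c oxidase, 2 of 11, and ATP synthase 9 of 14. Atp5g1, 1 of 3 genes for the rotor ring of ATP synthase, was at 1719 CPM against 905 CPM (log2 ratio 0.92, 0.82 to 1.03). Cyc1, the cytochrome c1 of complex III, was at 971 against 546 CPM, and Cox5a of complex IV at 1895 against 1067 CPM. In the large-fibre neurons the 3 genes were at 894, 508 and 1191 CPM.

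The tricarboxylic acid cycle, which feeds electrons to the chain, followed. With pyruvate dehydrogenase its 18 genes took 0.666% of UMIs, against 0.403%, 0.332% and 0.413% in the same 3 groups. Of 15 compared, 12 were higher than in the Ndrg1/Angpt4 neurons, 14 than in the other neurons and 8 than in the large-fibre neurons, and none was lower. Over all genes 10.4%, 14.9% and 10.6% were higher in these comparisons. Idh3a, a subunit of the NAD-dependent isocitrate dehydrogenase, was at 477 CPM against 219 CPM (log2 ratio 1.12, 0.91 to 1.34), and Mdh2, malate dehydrogenase, at 1354 against 772 CPM. Glycolysis had 4 of 14 genes higher and 0 lower, at a median of 0.32. Of the mitochondrial genome itself, 3 of 9 genes were higher than in the Ndrg1/Angpt4 neurons, 4 than in the other neurons and 0 than in the large-fibre neurons. Its share of UMIs in single neurons had a median of 1.73% in the Ociad2/Cpne9 neurons and 1.35% in the Ndrg1/Angpt4 neurons, and reached 53.1% in 1 of the Ociad2/Cpne9 neurons.

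The promoters of these genes were searched on both strands for the nuclear respiratory factor element GCGCATGCG and the estrogen-related receptor element TCAAGGTCA, in the 250 bases before the RefSeq start (GRCm38.p6). The first of these letters occurred in 6 of 63 respiratory genes with a promoter in the table (9.52%; 63 of 77 genes matched by symbol), in 1 of 16 genes of the tricarboxylic acid cycle list (16 of 18 matched) and in 444 of 27025 genes at large (1.64%). The second occurred in 1 of the 63, in none of the 16 and in 114 of all 27025 (0.422%). A match is a description of the letters. The matches of highest level in the Ociad2/Cpne9 neurons, Cox6a1 of complex IV (1858 CPM against 1493 CPM in the Ndrg1/Angpt4 neurons) and Ndufa11 of complex I (1143 against 793 CPM), are shown with the element in capitals. In both, the letters occur once on each strand, offset by 1 base, so 10 letters are in capitals. Cox6a1 is read from chr5:115348959-115349208, minus strand, and Ndufa11 from chr17:56717512-56717761, plus strand.
Cox6a1: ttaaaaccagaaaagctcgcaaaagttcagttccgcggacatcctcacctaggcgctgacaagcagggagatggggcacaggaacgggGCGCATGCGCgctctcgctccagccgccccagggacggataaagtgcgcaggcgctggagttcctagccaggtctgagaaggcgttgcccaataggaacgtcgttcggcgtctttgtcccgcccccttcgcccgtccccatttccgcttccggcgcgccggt
Ndufa11: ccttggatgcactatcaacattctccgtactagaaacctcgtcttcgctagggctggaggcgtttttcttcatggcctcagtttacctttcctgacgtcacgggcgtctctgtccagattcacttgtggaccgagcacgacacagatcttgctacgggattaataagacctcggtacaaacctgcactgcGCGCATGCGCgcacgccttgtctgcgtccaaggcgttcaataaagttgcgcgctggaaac

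Ribosomal protein messages ran the other way against the Ndrg1/Angpt4 neurons. None of 78 compared was higher and 20 were lower, at a median log2 ratio of -0.47, with 3.48% of UMIs against 4.92%. Over all genes of that comparison 10.4% were higher and 11.3% lower. Rpl10 was at 455 against 848 CPM and Rps23 at 364 against 709 CPM. Against the other neurons and the large-fibre neurons no ribosomal gene passed 1.5-fold either way, and the medians were -0.10 and 0.04. Many ribosomal genes have near-identical pseudogenes, which can share their reads.

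Peptide messages stood lower than in the Ndrg1/Angpt4 neurons. Of 10 compared, 6 were lower and 1 higher, with 0.459% of UMIs against 1.19%, and a median log2 ratio of -1.27. Over all genes 11.3% were lower and 10.4% higher. Tac1 was at 1374 (1315 to 1435) CPM against 4467 (4345 to 4591) CPM. Its lowest, median and highest counts were 0, 3 and 107 UMIs in the Ociad2/Cpne9 neurons and 0, 20 and 218 in the Ndrg1/Angpt4 neurons. The groups overlapped. Calca was at 301 CPM against 1963 CPM in the Ndrg1/Angpt4 neurons and 4607 CPM in the other neurons, with 0, 0 and 106 UMIs as lowest, median and highest counts against 0, 1 and 295 in the Ndrg1/Angpt4 neurons. The 58 neurons at a lead of -1 held 1406 of the 2242 Calca UMIs of that group. Without the neurons of 10 or more Calca UMIs the log2 ratio of Calca went from -2.71 to -1.01 against the Ndrg1/Angpt4 neurons. Against the other neurons it went from -3.94 to -1.26. That setting chose on Calca itself, so smaller ratios are built into it.

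Galanin followed the same order. Gal was at 181 (159.8 to 204) CPM against 798 (747 to 851) CPM, a log2 ratio of -2.14 (-2.34 to -1.94), with 0, 0 and 18 UMIs per neuron against 0, 4 and 35. Adcyap1, the precursor of the peptide PACAP, was at 120.4 against 424 CPM, and Scg2, a granin of dense-core vesicles, at 592 against 1819 CPM. The 1 gene higher was Chga, another granin, at 353 against 187 CPM. Without the neurons with 10 or more Calca UMIs in either group, the log2 ratio against the Ndrg1/Angpt4 neurons was -2.46 for Gal, -1.70 for Tac1 and -1.59 for Adcyap1. In the other neurons Tac1 stood at 2602, Gal at 278, Adcyap1 at 278 and Trpv1 at 171 CPM. Against that group the direction turned without the neurons with 10 or more Calca UMIs. The log2 ratios went from -0.92, -0.62, -1.21 and -0.81 to 1.08, 1.64, 1.31 and 1.30. That setting kept 215 of the 222 neurons but 2039 of the 3419 other neurons. The turn thus goes with a changed reference group, and how much of it is built in was not tested.

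Among TRP channels, Trpv1, the capsaicin and heat receptor, was at 97.9 (82.6 to 115) CPM in the Ociad2/Cpne9 neurons and 257 (229 to 289) CPM in the Ndrg1/Angpt4 neurons (log2 ratio -1.39, -1.69 to -1.10). A UMI was seen in 20.3% (15.2 to 26.2%) of the neurons against 45.3% (37.4 to 53.4%), and after thinning in 9.91% against 19.5%, with 0.495% in glia-like cells. Trpv2 was at 105 against 77.9 CPM. Trpm3, another heat-gated channel, was at 17.0 and 35.0 CPM, under the limit for comparison.

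A list of potassium channels was drawn up with the cold threshold in mind, and few were above the limit. Whether each listed gene acts on that threshold was not tested. Of 11 listed, 3 were compared with the Ndrg1/Angpt4 neurons, 1 was higher and 0 lower. Kcnk1, a leak channel of the TWIK type, was at 115 (98.3 to 134) CPM against 24.5 (16.3 to 35.4) CPM (log2 ratio 2.23, 1.65 to 2.86) and 103 CPM in the large-fibre neurons. Kcnk2, the mechano- and temperature-gated leak channel TREK-1, was at 135 CPM against 99.0 CPM in the Ndrg1/Angpt4 neurons, 32.6 in the other neurons and 14.1 CPM in the large-fibre neurons. Kcnc1, a fast-firing channel of the Kv3 type, was at 143 against 68.3 CPM, and Kcnh7 at 201 against 160.2 CPM.

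Of 11 sodium channel genes, 4 were compared with the Ndrg1/Angpt4 neurons, 2 were higher and 1 was lower, and of 6 compared with the large-fibre neurons 0 were higher and 2 lower. The lower 1 against the Ndrg1/Angpt4 neurons was Scn2b, an auxiliary beta subunit, at 116 against 196 CPM (log2 ratio -0.76, -1.06 to -0.47). Scn4b, the auxiliary beta4 subunit that goes with resurgent current in fast-firing neurons, was at 252 CPM against 82.3 CPM (log2 ratio 1.61, 1.28 to 1.95) and 220.5 CPM in the large-fibre neurons. The nociceptor channels Scn10a and Scn11a (Nav1.8 and Nav1.9) were at 10.9 and 9.52 CPM against 452 and 427 CPM in the other neurons, log2 ratios of -5.38 (-6.18 to -4.68) and -5.49 (-6.36 to -4.74). They were also scarce in the Ndrg1/Angpt4 neurons, at 61.3 and 58.7 CPM, so both groups were on the low side. Scn7a, a sodium-level sensing channel, was at 992 against 1101 CPM. Of 15 calcium channel genes, 5 were compared, and 1 was higher and 1 lower against the Ndrg1/Angpt4 neurons: Cacnb4 at 207 against 129.6 CPM and Cacna1b, the N-type channel of synapses, at 92.5 against 154 CPM. With the groups chosen at 1000 UMIs the log2 ratio of Cacnb4 was -0.11.

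**Figure D3:**
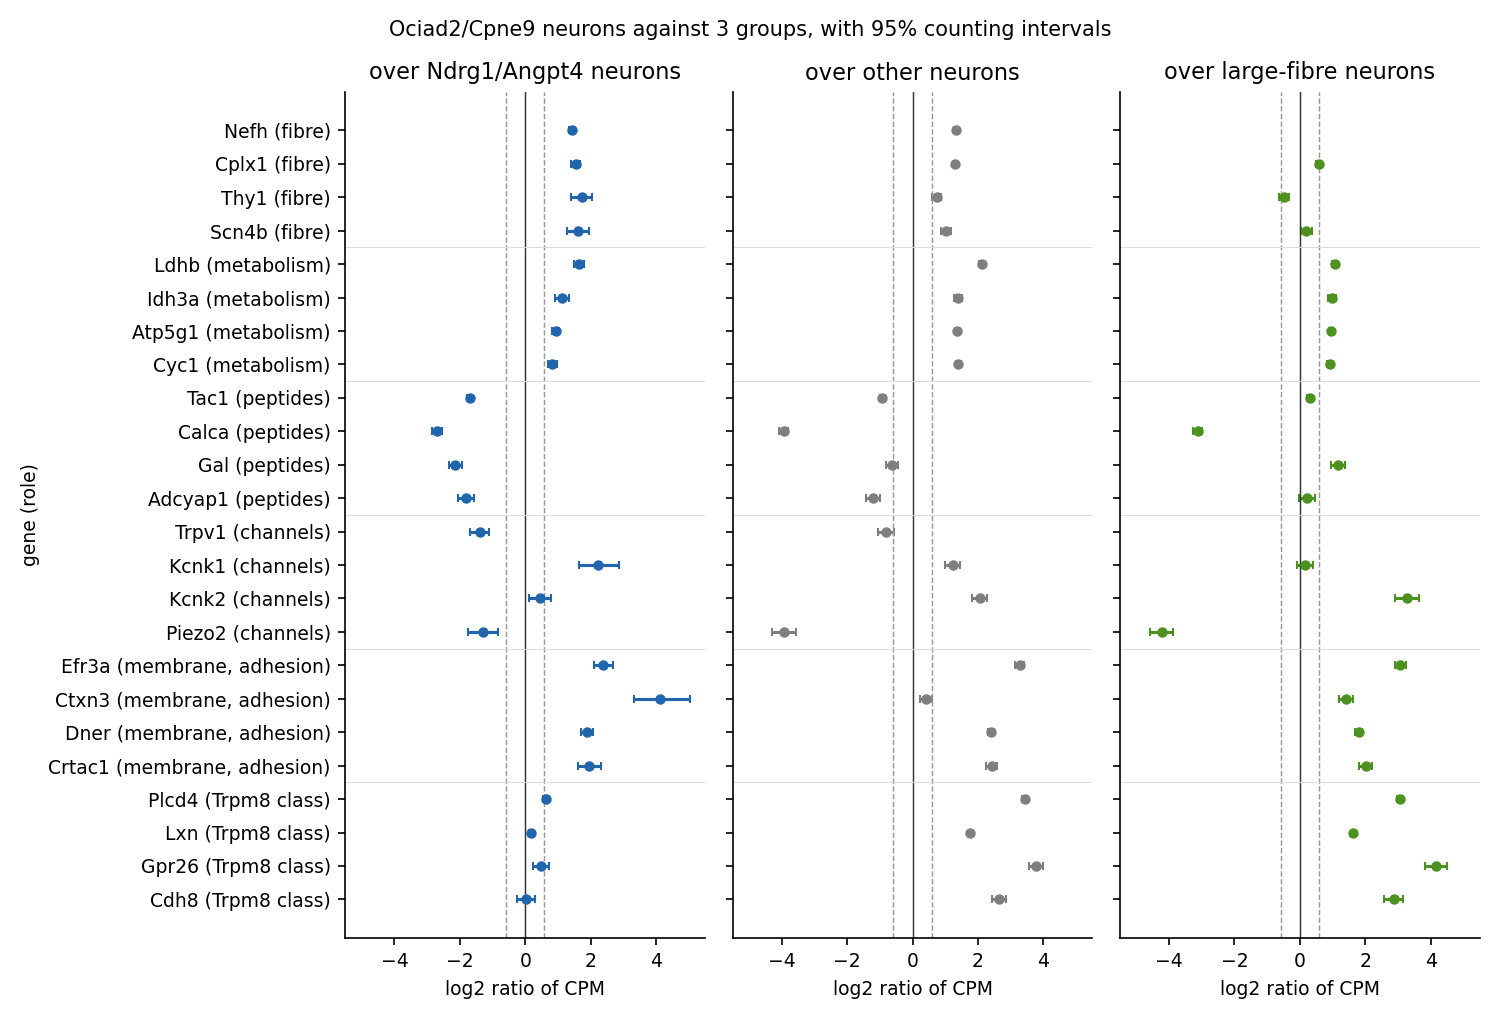
Log2 ratio of the CPM of the Ociad2/Cpne9 neurons over that of the Ndrg1/Angpt4, other and large-fibre neurons (x axis, 3 panels) for 24 genes grouped by role (y axis). Points are ratios of pooled UMIs, bars are 95% counting intervals and dashed lines mark 1.5-fold. A gene with too few UMIs in a comparison, or used to choose that group, has no point there. Nefh lies at 1.43, Gal at -2.14 and Ctxn3 at 4.12 in the first panel.

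Of 9 neurotrophic receptor genes, 2 were compared with the Ndrg1/Angpt4 neurons, too few for a count by direction. Gfra3, the artemin receptor, which entered through the Ndrg1/Angpt4 neurons alone, was at 59.2 against 236 CPM (log2 ratio -1.99, -2.36 to -1.64). Ret, the signalling partner of Gfra receptors, was under the limit of 100 CPM in both groups, at 33.3 and 99.8 CPM, and was not compared. Adora1, the inhibitory adenosine A1 receptor, was the 1 of 4 G protein-coupled receptors higher, at 168 against 79.7 CPM, while Gpr26 at 241 and 173 CPM differed by less than 1.5-fold. Of 5 glutamate and GABA receptor genes compared, 1 was higher and 1 lower, each having reached 100 CPM in 1 group only. Gabra2, a subunit of the GABA-A receptor, was at 135 against 82.3 CPM, and its log2 ratio was -0.14 after thinning to 1000 UMIs. Gabra3, another subunit of that receptor, was at 63.3 against 109 CPM (log2 ratio -0.78, -1.18 to -0.38). Grik1, a kainate receptor subunit, was at 7.48 CPM against 304 CPM in the other neurons and 154 CPM in the large-fibre neurons. Asic1, an acid-sensing channel, was at 103 CPM against 29.9 CPM in the other neurons and 72.7 CPM in the Ndrg1/Angpt4 neurons.

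Of the vesicle release genes, 4 of 13 were higher and 2 lower than in the Ndrg1/Angpt4 neurons, beside 10.4% and 11.3% of all genes. The complexins crossed over: Cplx1 stood at 1347 against 464 CPM and Cplx2, its relative, at 38.1 against 154 CPM (log2 ratio -2.02, -2.48 to -1.58). Vamp1, the vesicle SNARE of fast synapses, was at 244 against 105 CPM, and Syt1 and Rph3a, calcium sensors of vesicle fusion, were at 1112 against 628 and 796 against 450.1 CPM. Slc17a6, the vesicular glutamate transporter, was at 697 and 664 CPM.

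Of 13 calcium-binding proteins, 2 were higher and 3 lower than in the Ndrg1/Angpt4 neurons, beside 10.4% and 11.3% of all genes. Cpne6, a copine like Cpne9, was at 717 CPM against 211 CPM (log2 ratio 1.76, 1.56 to 1.97) and 603 CPM in the large-fibre neurons. Pvalb, the buffer parvalbumin, was at 110.2 against 34.2 CPM, in 13.1% of the neurons. These UMIs lay in few neurons: 85 of the 162 in the set were in 8 neurons at a lead of 2, and all 39 of the Ndrg1/Angpt4 neurons were in 5 of the 58 at a lead of -1. Pcp4, a calmodulin regulator, was at 977 CPM in the Ndrg1/Angpt4 neurons, with a log2 ratio of -2.29 (-2.48 to -2.10). S100a4 was at 188 and 211 CPM, with 19.2 CPM in the other neurons.

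Adhesion genes were higher than in the other neurons in 9 of 12 cases and lower in 0, at a median of 1.55, where 14.9% of all genes were higher and 16.1% lower. Some of them, such as Ntm and Cdh8, entered through the Ociad2/Cpne9 neurons alone. Cdh8 is also on the list of the Trpm8 class drawn from these same cells, so the adhesion count is not independent of that list. Against the Ndrg1/Angpt4 neurons 5 of 12 were higher and 1 lower, beside 10.4% and 11.3% of all genes. Dner, a ligand of Notch receptors, was at 999.8 (949 to 1052) CPM against 269 (239.6 to 301) CPM, with 0, 3 and 45 UMIs as lowest, median and highest counts. Crtac1, a secreted matrix protein, was at 269 against 69.2 CPM, and Cntn2, the axonal contactin of myelinated fibres, at 416 against 236 CPM. Ntm, neurotrimin, was at 259 and 214 CPM, with 33.3 CPM in the other neurons.

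Efr3a, Rab37 and Lgi3 were also among the 12 highest by ratio against the Ndrg1/Angpt4 neurons. Efr3a, which anchors a phosphatidylinositol kinase at the plasma membrane, was at 547 (509.7 to 586) CPM against 105 (87.1 to 126) CPM and 56.6 CPM in the other neurons. Its log2 ratios were 2.38 (2.10 to 2.67) and 3.27 (3.14 to 3.41). Rab37, a small GTPase of secretory vesicles, was at 129 against 18.4 CPM, and Lgi3, a secreted leucine-rich protein, at 139 against 21.0 CPM with 109 CPM in the large-fibre neurons. Among the 8 lowest were Emp3, a tetraspan membrane protein, at 13.6 against 104 CPM, Mpped2 at 36.7 against 202 CPM, and Cd24a, a surface glycoprotein, at 59.2 against 287 CPM.

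Of the transcription factors, 1 of 10 was higher and 3 lower than in the Ndrg1/Angpt4 neurons, beside 10.4% and 11.3% of all genes. Zbtb20, a zinc finger repressor, was at 252 against 637 CPM (log2 ratio -1.33, -1.52 to -1.15), Runx1, a factor of nociceptor identity, at 113 against 206 CPM, and Mef2c at 139 against 229 CPM. Isl1, a factor of all sensory neurons, was at 407 and 333 CPM, and Tle4, a corepressor, at 184 and 148 CPM. All 3 metallothioneins, which bind zinc and copper, were higher than in the other neurons: Mt2 was at 403 against 32.1 CPM and Mt1 at 514 against 109.8 CPM, beside 199.7 and 374 CPM in the Ndrg1/Angpt4 neurons.

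Immediate early and injury genes, which dissociation of tissue is known to induce, were lower than in the Ndrg1/Angpt4 neurons in 5 of 9 cases and higher in 1. Over all genes 11.3% were lower and 10.4% higher. Jun was at 262 against 656 CPM and Atf3 at 80.9 against 217 CPM, while Fos at 495 and 581 CPM was within 1.5-fold. The 1 gene higher was Cdkn1a, the cell-cycle inhibitor p21, at 368 against 177 CPM. These genes moved beside the peptide and ribosomal differences, and their part in them was not tested.

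RNA of other cell types differed between groups. The 10 glial markers together were 0.0350% of UMIs in the Ociad2/Cpne9 neurons, 0.0941% in the Ndrg1/Angpt4 neurons, 0.300% in the other neurons and 0.232% in the large-fibre neurons. The log2 ratio of this sum was -1.43 (-1.58 to -1.28) against the Ndrg1/Angpt4 neurons, -0.54 when a UMI of Trpm8 was required in both groups and 0.10 without neurons of 3 or more glial markers. The median glial share of single neurons was 0.0211% in the Ociad2/Cpne9 neurons and 0.0159% in the Ndrg1/Angpt4 neurons, with highest values of 2.17% and 9.32%, and the 38 neurons at a lead of -2 held 697 glial UMIs. The defining glial factor Sox10 had 1 UMI and Fabp7 0 in the whole set, but both were named after their values were seen. A UMI of a glial marker was found in 32 of the 45 neurons of the set with Trpv1 and 108 of the 177 without. Of 10 markers, 3 were compared with the Ndrg1/Angpt4 neurons and all 3 were lower. Globin and other red blood cell messages made up 0.483% of UMIs in the Ociad2/Cpne9 neurons and, in the same order of groups, 0.615%, 0.612% and 0.295%, with 3 of 6 markers compared and all 3 higher than in the large-fibre neurons. Pituitary markers made up 0.0261% against 0.0478%, 0.118% and 0.0254%, and endothelial, fibroblast and immune markers 0.00837% against 0.00438%, 0.0145% and 0.00795%. Without the neurons of either group that had 3 or more glial markers, the summed respiratory ratio was 0.51 against the Ndrg1/Angpt4 neurons and Nefh stood at 1.25.

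Within the set, the 45 neurons with a UMI of Trpv1 differed from the 177 without. Calca was at 1112 CPM in those with Trpv1 and 79.6 CPM in those without, Tac1 at 2783 and 990.0 CPM, and Gal at 321 and 143 CPM. The 7 neurons of 10 or more Calca UMIs were all among those with Trpv1. Without them, a choice made after seeing the data, Calca was at 123 CPM in the 38 neurons left with Trpv1 and 79.6 CPM in the 177 without, Tac1 at 2335 and 990.0 CPM, and Gal at 185 and 143 CPM. The opposite order was seen for Nefh at 1887 and 2557 CPM, Efr3a at 340.0 and 603 CPM and Ctxn3 at 57.2 and 236 CPM, and without those 7 neurons Nefh was at 1954 CPM with Trpv1, Efr3a at 396 CPM and Ctxn3 at 65.4 CPM. After thinning to 1000 UMIs a UMI of Ctxn3 was seen in 0 of 45 and in 16.9% of 177 neurons. Taking 3 neurons as the limit of a count of 0, which is no exact interval, the first allows a share of up to 6.67%. Before thinning Ctxn3 was seen in 8 of the 45 and 74 of the 177. Efr3a was seen after thinning in 17.8% and 42.9%. Lxn differed less, at 3222 and 3743 CPM. The median depth was 6049 UMIs with Trpv1 and 3711 without.

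The neurons were also grouped by the gene through which they entered. Nefh was at 2219.7 CPM in the 123 neurons with Trpm8 only, 1403 CPM in the 16 with Foxp2 only and 2645 CPM in the 83 with both. Lxn, at 3701, 3574 and 3597 CPM, was near 1 level throughout. Tac1 was highest in the neurons with Foxp2 only, at 3372 CPM against 1536 and 1048 CPM. The median depth of these 3 groups was 2837, 4035.5 and 7112 UMIs, so that the neurons with both genes were the deepest.

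Some values differed with depth. In 3 groups of 74 neurons by depth, with median counts of 1791.5, 4338 and 10242 UMIs, Nefh was at 2323, 2356 and 2444 CPM. Trpm8 was at 1008 CPM in the shallowest and 472 CPM in the deepest group, but the rule asks for a UMI of Trpm8 or Foxp2 at any depth and so holds up the CPM of shallow neurons. The respiratory genes made up 6.30%, 6.65% and 7.09% of UMIs, and Ctxn3 was at 67.2, 184 and 219 CPM. The set also depended on depth. When the rule was applied after each barcode was thinned to 1000 UMIs it kept 126 neurons, of which 108 were in the set at full depth, 9 had been ties and 9 had been Ndrg1/Angpt4 neurons.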

How the data were processed

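Trigeminal neurons were profiled by Drop-seq in 9 runs. The values used here are from 1 table of raw counts that the authors deposited, the UMIs of each gene in each barcode, from all runs together, with no normalization. The study's own clustering was not used here. The submitters' processing notes name bcl2fastq 2.17, STAR 2.5.3a, Seurat 1.4.0.16 and the mm10 build. The table's smallest barcode held 1000 UMIs. No doublet caller was run here. By the study's methods, the cell suspension was inspected for doublets and aggregates and libraries of very many genes were left out of its clustering.

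The members and the gene lists were chosen with earlier results of these data known. UMIs were summed over the neurons of a group and scaled to CPM. Genes of at least 100 CPM in either group and 100 UMIs in both were compared, without those of the rule, and past 1.5-fold counted as higher or lower. Genes were named if they were in the rule, among the 12 highest or 8 lowest ratios of a comparison, or, in each list, among the 5 highest levels or the 3 largest ratios against the Ndrg1/Angpt4 neurons. Sox10, Fabp7, Nppb, Sst, Mrgpra3 and Cd34, markers of other cells, were named outside this rule after their values were seen. Poisson, Clopper-Pearson and conditional binomial intervals at 95% cover counting error only. Thinning drew 1000 UMIs per barcode (seed 1). Glia-like cells had at most 1 of the 6 neuronal genes and 3 or more of 7 glial genes, and red blood cell-like cells had globins as 5% or more of UMIs. The comparison script was tested on simulated data. Python 3.11.15, numpy 2.4.6, scipy 1.17.1 and matplotlib 3.10.9 were used. Promoters came from RefSeq (GRCm38.p6). No values were compared between runs, since barcodes name none, and the deposited table has no other columns.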

Additional observations from a re-analysis of the deposited data

How the results depend on the processing

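Of 66 recomputed set sizes and counts of genes past 1.5-fold, 57 stayed within 1.5 times the main value. After thinning to 1000 UMIs, 99 genes were higher and 83 lower against the Ndrg1/Angpt4 neurons in place of 241 and 263, as fewer genes could be compared. With genes of 20 CPM or more, more genes entered: 427 were higher and 480 lower against the Ndrg1/Angpt4 neurons, 845 and 1566 against the other neurons, and 622 and 1274 against the large-fibre neurons. The rule applied at 1000 UMIs gave 126 neurons in place of 222. Of 1130 recomputed ratios of single genes, 855 stayed within the 95% counting interval of the main value, 268 moved outside it and 7 reversed, a word used where the main ratio was past 1.5-fold. Against the other neurons, without neurons of 10 or more Calca UMIs, these were Tac1 at 1.08, Gal at 1.64, Adcyap1 at 1.31 and Trpv1 at 1.30. That setting kept 2039 of the 3419 other neurons and 215 of the 222, so by its construction it changed mainly the reference group. Against the Ndrg1/Angpt4 neurons the reversed ratios were Gabra2 at -0.14 after thinning, and, with the sets chosen at 1000 UMIs, Cacnb4 at -0.11 and Piezo2 at 0.22. Of 60 recomputed ratios of summed lists, 24 stayed within that interval, 35 moved outside it and 1 reversed, that of the glial markers against the Ndrg1/Angpt4 neurons, at 0.10 without neurons of 3 or more of these markers, which that setting removes by its construction. The other causes were not tested. The alternatives without neurons of glial markers and with sets chosen at 1000 UMIs were added after seeing the data. No paired analysis was possible because the barcodes name no run, and for the same reason no run could be left out. Counting error limits genes under 100 CPM.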
